A study of Mus musculus with 30 samples.

Results

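The 10 genes described here encode the small GTPases that set the shape of dendrites and spines through actin, together with their activators and downstream kinases: Rhoa, Rac1, Cdc42, Tiam1, Kalrn, Rock1, Rock2, Pak1, Limk1 and Cfl1. They were chosen by name from the 55335 genes of the deposited table, and all 10 were found once and passed the filter on low counts. Pak1 and Limk1 stood higher in D1 than in D2 neurons, Rock1 stood lower, and no member passed the test in any comparison of stress groups.

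RhoA, Rac1 and Cdc42 switch between an active GTP-bound and an inactive GDP-bound form. RhoA acts through the kinases ROCK1 and ROCK2 and promotes contraction and retraction of dendrites, whereas Rac1 and Cdc42 act through PAK kinases and favour spine growth. Both arms meet at LIM kinase, which phosphorylates and so inactivates cofilin, the protein that severs actin filaments. In male mice, RhoA in D1 neurons of the nucleus accumbens is known for its link to the loss of dendrites after social defeat.

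Ribosome-bound RNA was measured in the nucleus accumbens, a part of the ventral striatum, of female mice that expressed an HA-tagged ribosomal protein (RiboTag, RT). In D1-Cre-RT mice Cre marked medium spiny neurons with the D1 dopamine receptor, and in A2A-Cre-RT mice it marked those with the D2 receptor, whose libraries are labelled D2. Each class had Control mice and mice after chronic witness defeat stress (CWDS), in which a mouse watches another being defeated, which a social interaction score had sorted into Resilient and Susceptible. Each of the 6 groups held 5 libraries, each library pooled 4 mice with similar scores, and tissue was collected 24 h after the interaction test. All groups carry the tagged ribosome and a Cre driver. Every D1 library came from D1-Cre-RT mice and every D2 library from A2A-Cre-RT mice, so class and mouse line cannot be told apart. The p-values measure the spread between these pooled libraries. A lower value may come from a smaller share of cells that express the gene, from less RNA per cell or from less of it on ribosomes. Ribosome-bound RNA of pooled tissue cannot separate these.

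Gene counts per library ran from 28996168 to 65882152. The 4 D1 neuron markers (Drd1, Pdyn, Tac1 and Isl1) summed to 1547 to 2346 CPM (reads of a gene scaled to a fixed library total, on TMM-scaled library sizes) in the D1 libraries, and the 4 D2 neuron markers (Drd2, Adora2a, Penk and Gpr6) to 4835 to 12698 CPM in the D2 libraries. Averaged over conditions, all 8 passed the test in the direction of their label. Within Resilient alone, 3 of the 4 D1 neuron markers did. A few libraries stood apart. D2 Resilient replicate 5 had D1 markers at 1669 CPM, within the D1 range, and D2 Control replicate 5 at 1101 CPM, against 239 to 632 CPM in the other D2 libraries. D2 markers reached 2748 CPM in the D1 libraries. D2 Susceptible replicates 1 and 2 had counts for 15822 and 16525 genes, against 19440 to 22375 in the other 28 libraries. In D1 Susceptible replicate 1, a single gene, Gm42418, took 54.9% of the gene counts. Markers of other cells moved with class. Endothelial markers summed to 11.9 to 34.1 CPM in D1 and 53.3 to 303 CPM in D2, mural markers to 7.84 to 32.8 and 88.0 to 248 CPM, astrocyte markers to 28.3 to 136 and 54.2 to 184 CPM, and oligodendrocyte markers to 348 to 898 and 397 to 1838 CPM. Microglial markers summed to 7.21 to 32.8 CPM in D1 and 11.4 to 38.3 CPM in D2. Interneuron markers went the other way, with 279 to 459 CPM in D1 and 66.3 to 266 CPM in D2. P2ry12, a microglial marker, and the mural markers Acta2 and Kcnj8 were each at 0 in at least 1 library. The part of these markers in the results on class was not tested.

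Promoters of Pak1, Limk1 and Rock2 are shown because Pak1 and Limk1 had the widest D1 excess of the 10 genes and Rock2 is the abundant kinase whose deviations ran with those of Rock1. They come from RefSeq (GRCm38.p6), 250 bases before to 50 bases after the gene's start, 5′ to 3′ on the gene's strand. Capitals mark matches on either strand to TGACGTCA (the cAMP response element, CRE) and to GGGCGG (a GC box). No CRE match overlapped a GC box, and 1 pair of neighbouring GC boxes in Rock2 shares a base.
Pak1, chr7:97788291-97788590, plus strand: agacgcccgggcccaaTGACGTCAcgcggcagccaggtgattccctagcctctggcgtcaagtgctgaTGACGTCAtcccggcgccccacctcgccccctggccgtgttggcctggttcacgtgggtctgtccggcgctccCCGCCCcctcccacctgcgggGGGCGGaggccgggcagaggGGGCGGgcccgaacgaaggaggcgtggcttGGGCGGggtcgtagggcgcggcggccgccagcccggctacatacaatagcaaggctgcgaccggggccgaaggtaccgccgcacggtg
Limk1, chr5:134688541-134688840, minus strand: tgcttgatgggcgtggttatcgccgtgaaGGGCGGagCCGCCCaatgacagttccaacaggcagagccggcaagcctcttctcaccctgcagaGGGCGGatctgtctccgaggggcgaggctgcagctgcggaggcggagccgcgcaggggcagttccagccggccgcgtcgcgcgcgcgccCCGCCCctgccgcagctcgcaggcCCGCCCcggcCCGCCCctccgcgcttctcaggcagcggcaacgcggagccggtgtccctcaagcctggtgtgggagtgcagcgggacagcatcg
Rock2, chr12:16894728-16895027, plus strand: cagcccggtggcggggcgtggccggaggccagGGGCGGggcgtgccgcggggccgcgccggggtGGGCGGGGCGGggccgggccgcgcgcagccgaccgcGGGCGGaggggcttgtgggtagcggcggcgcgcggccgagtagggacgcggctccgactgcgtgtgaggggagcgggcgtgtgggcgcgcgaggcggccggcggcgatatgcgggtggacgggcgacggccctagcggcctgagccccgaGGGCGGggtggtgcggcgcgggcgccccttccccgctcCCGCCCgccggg
The Pak1 window held 2 CRE matches, beginning 234 and 182 bases before the start, and 4 GC boxes. The Limk1 and Rock2 windows each held 6 GC boxes and 0 CRE matches. Of 32851 RefSeq promoter windows of this length, 588 (1.79%) held the CRE and 11714 (35.7%) a GC box. RefSeq windows were read for 8 of the 10 genes, of which 2 (Pak1 and Cdc42) held a CRE and 6 a GC box. These genes had 12 windows, so some had more than 1 window in which to hold a match. The shares above are counted by window and not by gene, so the 2 kinds of count are not alike. Rhoa held a GC box only in a window without its annotated gene start, and no window of Kalrn or Tiam1 held that start. Rac1 had no entry, and Rock1 was left out of this reading, so its promoter was not examined. These are matches of letters only.

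The genes differed widely in level, which is compared between genes as CPM per kilobase of exon, averaged over all 30 libraries. The exon length is that of all annotated exons of a gene merged. It may exceed that of the transcripts present, so the order depends on this scale. Cfl1, which encodes cofilin 1, was the most abundant at 382 ± 39.4 (SD, n = 30), followed by Cdc42 at 140 ± 8.86. Next came Rac1 at 71.4 ± 5.14 and Pak1 at 61.6 ± 18.6, whose order depended on class. Rac1 was above Pak1 in all 15 D2 libraries (73.2 ± 5.38 and 46.96 ± 13.1) and in 2 of 15 D1 libraries (69.7 ± 4.40 and 76.3 ± 9.27). Rock2 stood at 21.4 ± 5.02 and Rhoa at 18.6 ± 1.13, with Rock2 above Rhoa in 13 of 15 D1 and 10 of 15 D2 libraries. The exchange factors followed, Tiam1 at 13.03 ± 1.58 and Kalrn at 9.55 ± 0.861, and every library kept that order on this scale. Limk1 at 2.58 ± 0.726 and Rock1 at 2.00 ± 1.48 were the lowest. Limk1 was above Rock1 in all 15 D1 libraries (3.17 ± 0.440 and 1.33 ± 0.359) and in 8 of 15 D2 libraries, where the mean of Rock1 was the higher (2.004 ± 0.421 for Limk1 and 2.67 ± 1.85 for Rock1). The ROCK kinases differed in level on this scale, with Rock2 the more abundant of the pair. In mean CPM, without division by exon length, some genes changed order. Kalrn (230) was above Tiam1 (131), Rock1 (36.2) above Limk1 (18.5) and Rock2 (298) above Pak1 (243). In the shallowest library for these genes, D1 Susceptible replicate 1, Limk1 rested on 185 counts and Rock1 on 342.

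**Figure D1:**
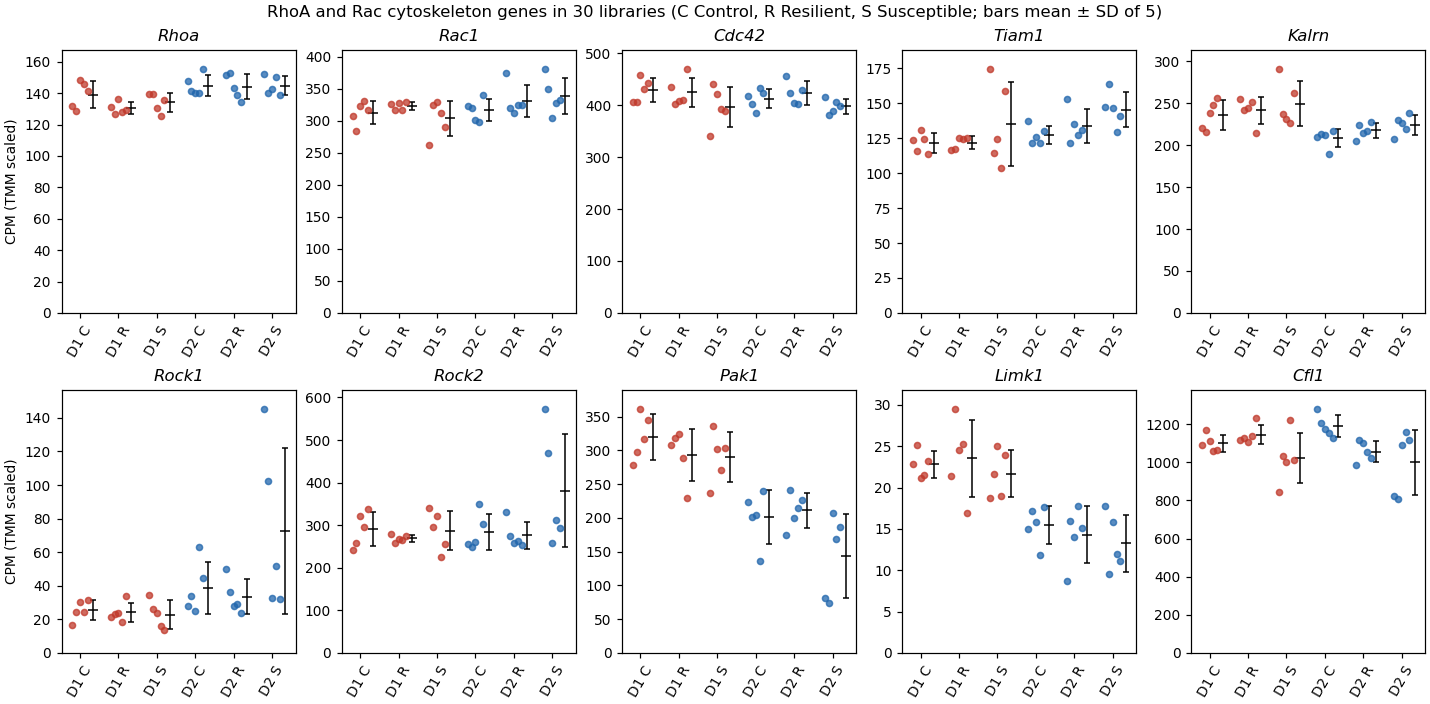
CPM on TMM-scaled library sizes (vertical axis, starting at 0) of the 10 genes in each library, by group (C Control, R Resilient, S Susceptible; red D1, blue D2), with bars for the mean ± SD of 5. Pak1 and Limk1 sit higher in D1, and in D2 Susceptible the first 2 libraries stand apart for Rock1 (145 and 102 CPM), Rock2 and Pak1.

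Between the classes, averaged over the 3 conditions, 5 of the 10 genes passed the test (edgeR's quasi-likelihood F test, Benjamini-Hochberg adjusted p under 0.05), against 29.3% of the 19368 genes tested. Pak1, Limk1 and Kalrn were higher in D1 (13.8% of all genes), and Rock1 and Rhoa were higher in D2 (15.5%). The median D1 minus D2 difference of the 10 genes was -0.03 on the log2 scale, against 0.00 over all genes tested. Rac1, Cdc42, Tiam1, Rock2 and Cfl1 did not pass.

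**Figure D2:**
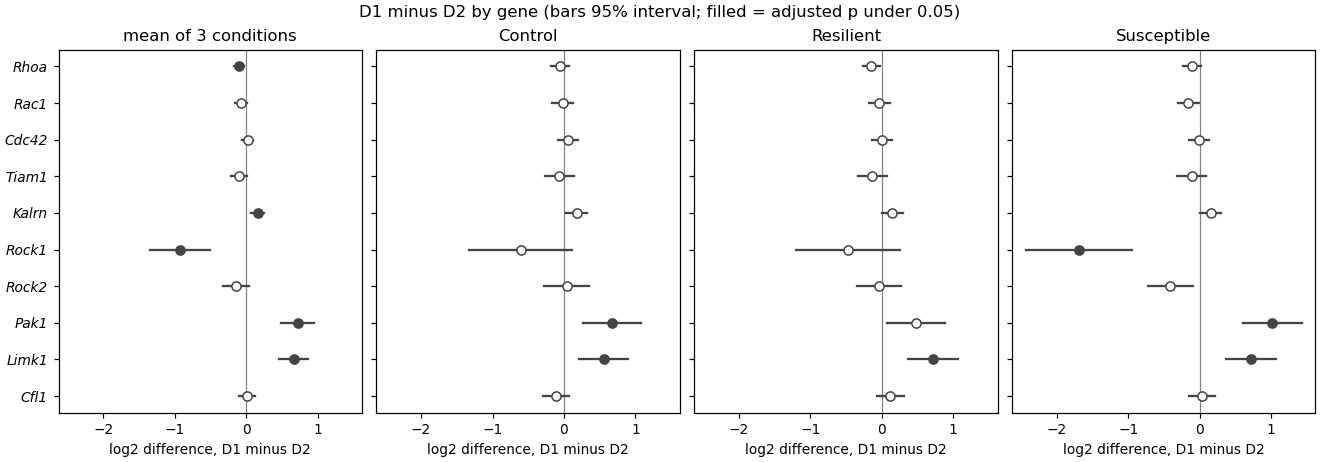
D1 minus D2 difference (log2, horizontal axis) of each gene, averaged over the 3 conditions and within each, with 95% intervals from edgeR and filled points for an adjusted p under 0.05. Pak1 and Limk1 lie to the right in all 4 panels, and Rock1 lies farthest left in Susceptible at -1.69.

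Among the GTPases, Rhoa (ENSMUSG00000007815, chr9:108306129-108337934, plus strand, GRCm38) varied least, with a coefficient of variation of 6.04% over the 30 libraries. Its values in replicates 1 to 5 were 132, 128, 148, 146 and 141 CPM in D1 Control, 131, 127, 137, 128 and 129 CPM in D1 Resilient and 139.6, 139.7, 131, 125 and 135 CPM in D1 Susceptible. In D2 they were 148, 141, 139.9, 139.9 and 155 CPM in Control, 152, 153, 143, 139 and 134 CPM in Resilient and 152, 140.2, 143, 150.3 and 139 CPM in Susceptible. The D1 and D2 ranges overlapped, although 8 of 15 D1 libraries were below every D2 library. The D1 minus D2 difference was -0.10 ± 0.04 (log2, SE, adjusted p = 0.0243 by edgeR), a fold of 0.930 with a 95% interval of 0.885 to 0.977. This call was narrow. It was lost in 24 of 30 fits that each left out 1 library, where the difference ran from -0.12 to -0.08 and the adjusted p from 0.0139 to 0.0955, and it held without D1 Control 3, D1 Susceptible 1, D2 Resilient 1, D2 Resilient 5, D2 Susceptible 2 or D2 Susceptible 5. It was also lost with no filter on low counts (-0.09, adjusted p = 0.138) and without D2 Susceptible replicates 1 and 2 (-0.08, adjusted p = 0.0778). Within a single condition Rhoa did not pass, with -0.06 in Control, -0.14 in Resilient and -0.11 in Susceptible (adjusted p = 0.699, 0.206 and 0.189 by edgeR).

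Rac1 (ENSMUSG00000001847, chr5:143503634-143528036, minus strand) and Cdc42 (ENSMUSG00000006699, chr4:137319696-137357720, minus strand), the GTPases of lamellipodia and filopodia, were close between classes. Rac1 had a median of 317 CPM in D1 (262 to 331) and 325 CPM in D2 (299 to 380). Cdc42 had a median of 410 CPM in D1 (341 to 469) and 406 CPM in D2 (381 to 457). The ranges overlapped for both. The D1 minus D2 difference was -0.07 for Rac1 (95% interval -0.16 to 0.02, adjusted p = 0.222 by edgeR) and 0.02 for Cdc42 (-0.06 to 0.10, adjusted p = 0.761). Exons of Rhoa and Rac1 overlap those of opposite-strand genes, and 0 bases of Cdc42 do. The strand setting of the counts is not given in the sources used here, so reads of these overlaps may be uncertain. For Rac1 the overlap with Daglb covers 51.4% of its exon length, and Daglb had 47046 counts over all libraries, against 525505 for Rac1. For Rhoa the largest overlap, with Gm37401, covers 4.32%.

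The exchange factors load GTP onto the GTPases. Kalrn (ENSMUSG00000061751, chr16:33969073-34573532, minus strand) encodes kalirin, which acts on Rac1 and RhoA at spines. Its values were 221, 215, 238, 249 and 256 CPM in D1 Control, 255, 242, 245, 252 and 214 CPM in D1 Resilient and 290.5, 237, 231, 226 and 263 CPM in D1 Susceptible. In D2 they were 210.0, 214, 213, 190.1 and 217 CPM in Control, 205, 225, 215, 217 and 228 CPM in Resilient and 207, 230.3, 227, 219 and 238 CPM in Susceptible. Over all conditions 8 of 15 D1 libraries were above every D2 library, and the ranges overlapped. The D1 minus D2 difference was 0.16 ± 0.04 (log2, SE, adjusted p = 0.00441 by edgeR), a fold of 1.12 (95% interval 1.05 to 1.19), and it passed in all 30 fits that left out 1 library. Within a single condition Kalrn did not pass, with 0.18 in Control, 0.15 in Resilient and 0.15 in Susceptible (adjusted p = 0.148, 0.329 and 0.126 by edgeR). The Susceptible difference was 0.09 without D1 Susceptible 1, which held the highest value. Tiam1 (ENSMUSG00000002489, chr16:89787111-90143769, minus strand), which activates Rac1, had a median of 124 CPM in D1 (104 to 174) and 131 CPM in D2 (122 to 164). Its difference of -0.10 (-0.22 to 0.01) did not pass (adjusted p = 0.188 by edgeR).

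Pak1 (ENSMUSG00000030774, chr7:97788541-97912381, plus strand), the kinase that Rac1 and Cdc42 activate, had among the widest class differences of the 10. It stood at 278, 297, 361, 316 and 345 CPM in D1 Control, 309, 318, 324, 288 and 229 CPM in D1 Resilient and 237, 337, 302, 272 and 303 CPM in D1 Susceptible. In D2 it stood at 223, 202, 204, 136 and 240.1 CPM in Control, 174, 242, 199.6, 215 and 226 CPM in Resilient and 81.2, 73.97, 207, 168 and 187 CPM in Susceptible. In 13 of 15 D1 libraries Pak1 was above every D2 library, and D1 Resilient 5 and D1 Susceptible 1 were the other two. The D1 minus D2 difference was 0.72 ± 0.12 (log2, SE, adjusted p = 1.64e-05 by edgeR), a fold of 1.65 with a 95% interval of 1.399 to 1.94. It passed in all 30 fits that left out 1 library, and stood at 0.61 without D2 Susceptible 1 and 2 (adjusted p = 8.66e-08). Within conditions the difference was 0.67 in Control (adjusted p = 0.0330), 0.47 in Resilient (adjusted p = 0.204) and 1.02 in Susceptible (adjusted p = 0.000646 by edgeR). The difference between Susceptible and Control in this class gap, 0.35, and between Susceptible and Resilient, 0.54, did not pass (adjusted p = 0.723 and 0.432 by edgeR).

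Limk1 (ENSMUSG00000029674, chr5:134656039-134688598, minus strand) encodes LIM kinase 1, the kinase that both arms of the pathway reach. Its levels were low, at 22.9, 25.2, 21.2, 21.5 and 23.3 CPM in D1 Control, 21.4, 29.5, 24.6, 25.3 and 16.9 CPM in D1 Resilient and 18.8, 21.6, 25.1, 18.97 and 23.95 CPM in D1 Susceptible. In D2 they were 15.02, 17.1, 15.9, 11.8 and 17.6 CPM in Control, 8.72, 16.01, 13.98, 17.8 and 15.1 CPM in Resilient and 17.7, 9.54, 15.9, 11.9 and 11.2 CPM in Susceptible. In 14 of 15 D1 libraries Limk1 was above every D2 library, the exception being D1 Resilient 5. The D1 minus D2 difference was 0.66 ± 0.10 (log2, SE, adjusted p = 3.52e-06 by edgeR), a fold of 1.58 (95% interval 1.38 to 1.82). It was 0.56 in Control (adjusted p = 0.0352), 0.72 in Resilient (adjusted p = 0.00562) and 0.72 in Susceptible (adjusted p = 0.00315 by edgeR). From Control the gap changed by 0.16 in both Resilient and Susceptible, and neither change passed (adjusted p = 1.000 and 0.858 by edgeR).

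Within conditions, 2 of the 10 genes passed in Control (8.3% of all genes tested), 1 in Resilient (6.65%) and 3 in Susceptible (23.9%). In Control and in Susceptible the D1 and D2 libraries of Pak1 and of Limk1 did not overlap, as was so for 11.7% and 8.92% of all genes. The Control calls were narrow. Pak1 in Control was lost in 6 of 10 fits that left out 1 library (without D1 Control 3, 4 or 5 or D2 Control 2, 3 or 4; log2 difference 0.57 to 0.75), and Limk1 in 7 of 10 (without D1 Control 2, 3, 4 or 5 or D2 Control 1, 3 or 4; 0.49 to 0.62). Without D2 Susceptible 1 and 2 both passed in Control, at 0.68 for Pak1 (adjusted p = 0.000165) and 0.57 for Limk1 (adjusted p = 0.00795 by edgeR), and Pak1 also passed in Resilient, at 0.49 (adjusted p = 0.00478).

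Rock1 (ENSMUSG00000024290, chr18:10064401-10182045, minus strand) encodes a RhoA-activated kinase and was the member with the widest spread. It stood at 16.3, 24.4, 30.5, 24.6 and 31.6 CPM in D1 Control, 21.2, 22.9, 23.9, 18.6 and 33.9 CPM in D1 Resilient and 34.7, 26.3, 23.7, 15.8 and 13.7 CPM in D1 Susceptible. In D2 it stood at 27.6, 33.99, 24.8, 62.8 and 44.8 CPM in Control, 50.2, 36.4, 27.7, 29.3 and 23.8 CPM in Resilient and 145, 102, 32.5, 51.5 and 32.3 CPM in Susceptible. The classes overlapped, with 7 of 15 D2 libraries above every D1 library. The D1 minus D2 difference was -0.92 ± 0.20 (log2, SE, adjusted p = 0.00107 by edgeR), a fold of 0.527 (95% interval 0.394 to 0.705), and -0.61 without D2 Susceptible 1 and 2 (adjusted p = 0.00749). By condition it was -0.61 in Control, -0.47 in Resilient and -1.69 in Susceptible (adjusted p = 0.369, 0.671 and 0.00160 by edgeR). The Susceptible call did not hold without D2 Susceptible 1 and 2, where the difference was -0.77 (adjusted p = 0.132), nor without these together with D1 Susceptible 1 and D2 Resilient 5, where it was -0.96 (adjusted p = 0.0532).

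Rock2 (ENSMUSG00000020580, chr12:16894895-16987823, plus strand), the other RhoA kinase, stood at 243, 258, 322, 296 and 337 CPM in D1 Control, 279.6, 258, 268, 264 and 274 CPM in D1 Resilient and 339, 295, 321, 226 and 256 CPM in D1 Susceptible. In D2 it stood at 256, 248, 261, 349 and 304 CPM in Control, 331, 275, 257, 264 and 254 CPM in Resilient and 572, 469, 259, 311 and 294 CPM in Susceptible. D2 Susceptible 1 and 2 were the highest of all 30 libraries, and the remaining D2 libraries lay in nearly the same range as D1. The class difference was -0.14 (95% interval -0.32 to 0.05, adjusted p = 0.267 by edgeR). In Susceptible it was -0.41 (adjusted p = 0.0519), and 0.02 without D2 Susceptible 1 and 2 (adjusted p = 0.961). It passed with DESeq2 (-0.43, adjusted p = 0.0319), and in edgeR when D1 Susceptible 1 (-0.48) or D2 Susceptible 3 (-0.50), 4 (-0.45) or 5 (-0.47) was left out.

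Cfl1 (ENSMUSG00000056201, chr19:5490455-5495201, plus strand) encodes cofilin 1, the end point of both arms. It stood at 1091, 1169.7, 1110.0, 1059.5 and 1065 CPM in D1 Control, 1118, 1126, 1109, 1138 and 1235 CPM in D1 Resilient and 846, 1031, 1004, 1221 and 1011 CPM in D1 Susceptible. In D2 it stood at 1278, 1205, 1175, 1156 and 1130.1 CPM in Control, 986, 1115, 1104, 1052 and 1021 CPM in Resilient and 824, 806, 1093, 1159 and 1115 CPM in Susceptible. The class ranges overlapped nearly fully, and the difference was 0.01 (95% interval -0.10 to 0.12, adjusted p = 0.893 by edgeR). Exons of Snx32 on the opposite strand cover 16.5% of the exon length of Cfl1, and Snx32 had 84272 counts against 1779157.

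The stress comparisons asked whether these genes changed in Susceptible or Resilient females within a class. In D1 neurons 0 of the 10 passed in any of the 3 comparisons, where 0% of all 19368 genes passed by edgeR, and 0 of the 10 had an unadjusted p under 0.05 (2.4% of all genes for Susceptible against Control, 2.6% for Resilient against Control and 3.49% for Susceptible against Resilient). DESeq2 and limma voom also called 0 of the 10 in each. Their shares of all genes are not given, so these 2 counts are not a result about the members. The differences ran from -0.17 to 0.15 for Susceptible against Control, from -0.12 to 0.06 for Resilient against Control and from -0.16 to 0.15 for Susceptible against Resilient. For Rhoa in D1, the Susceptible minus Control difference was -0.05 (95% interval -0.18 to 0.07), the Resilient minus Control difference -0.09 (-0.22 to 0.03) and the Susceptible minus Resilient difference 0.04 (-0.08 to 0.17). As folds, the interval of Rhoa for Susceptible against Control was 0.884 to 1.05. For Rock1, a less precise gene, the same interval was 0.535 to 1.47. The median over the 10 genes was -0.06 for Susceptible against Control, against -0.01 for all genes tested.

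**Figure D3:**
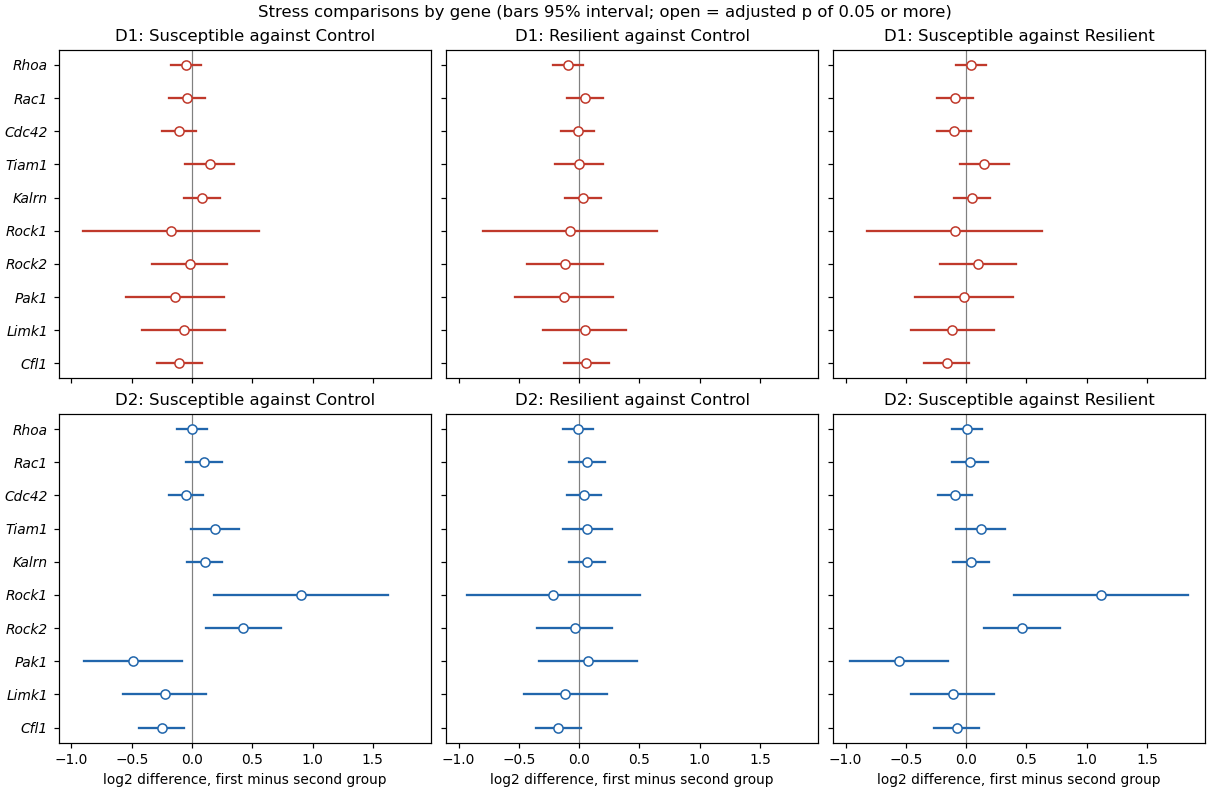
Log2 difference between stress groups (horizontal axis) for each gene within D1 (top, red) and D2 (bottom, blue), with 95% intervals from edgeR. All points are open because no adjusted p was under 0.05, and the intervals that miss 0 are all in D2 Susceptible, for Rock1, Rock2, Pak1 and Cfl1.

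In D2 neurons 0 of the 10 passed either, against 0.00516% of all genes for Susceptible against Control, 0% for Resilient against Control and 0.0516% for Susceptible against Resilient. Before adjustment, 4 of the 10 had p under 0.05 by edgeR for Susceptible against Control, where 15.7% of all genes did. These were Rock1 at 0.91 ± 0.35, Rock2 at 0.43 ± 0.15, Pak1 at -0.49 ± 0.20 and Cfl1 at -0.25 ± 0.09 (log2, SE), with adjusted p of 0.220, 0.198, 0.241 and 0.202 by edgeR. DESeq2 and limma voom called 0 of the 10 here, and edgeR called Rock2 when D2 Susceptible 3 was left out (0.53, adjusted p = 0.0409). For Susceptible against Resilient 3 of the 10 did (19.1% of all genes), with Rock1 at 1.12, Rock2 at 0.46 and Pak1 at -0.56 and adjusted p of 0.0976, 0.106 and 0.127 by edgeR. DESeq2 called Rock1 in this comparison, at 1.15 (adjusted p = 0.0445), and leaving out D2 Susceptible 3 or 5 brought Rock1 (1.31 in both), Rock2 (0.57 and 0.54) and Pak1 (-0.73 and -0.67) past the threshold in edgeR. For Resilient against Control 0 of the 10 had an unadjusted p under 0.05 by edgeR, against 4.2% of all genes, and DESeq2 and limma voom called 0. There the 5 Resilient libraries of Cfl1 (986 to 1115 CPM) all lay below the 5 Control libraries (1130.1 to 1278 CPM), as 1.31% of all genes did in either direction, with a log2 difference of -0.17 (adjusted p = 1.000 by edgeR). Rhoa in D2 had a Susceptible minus Control difference of -0.00 (95% interval -0.12 to 0.12). Shares of all genes are not given for the D2 fits by DESeq2, by limma voom or with a library left out. The counts of members called in those fits are therefore not a result about the members.

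The D2 Susceptible differences came with a split inside that group. Replicates 1 and 2 averaged 124 CPM for Rock1, against 38.8 CPM in replicates 3 to 5. For Rock2 the averages were 521 and 288 CPM, for Pak1 77.6 and 187 CPM, and for Cfl1 815 and 1122 CPM. Both libraries lay on the same side of the range of the other three for 6 of the 10 genes (these 4, Rac1 and Tiam1). For 2 genes, Cdc42 and Limk1, replicate 1 lay above that range and replicate 2 below it, and for the other two, Rhoa and Kalrn, replicate 2 lay within it. Without these libraries the Susceptible minus Control differences in D2 were -0.01 for Rock1, 0.02 for Rock2, -0.11 for Pak1 and -0.09 for Cfl1. These are the libraries with the fewest genes detected, and their oligodendrocyte markers summed to 1838 and 1395 CPM, against 751 to 984 CPM in replicates 3 to 5. Their endothelial markers summed to 303 and 223 CPM against 173 to 203 CPM, while mural markers summed to 137 and 122 CPM against 157 to 185 CPM and shared medium spiny neuron markers to 3819 and 4360 CPM against 4441 to 5189 CPM. D1 neuron markers summed to 530 and 465 CPM against 239 to 326 CPM, mostly from Tac1 (423 and 373 CPM against 149.9 to 237 CPM), whereas Isl1 was lowest in these libraries (0.601 and 0.869 CPM against 2.16 to 5.94 CPM). The part of these in the differences was not tested.

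The difference between the D1 and D2 changes was tested directly. For Susceptible against Control, Resilient against Control and Susceptible against Resilient 0 of the 10 passed by edgeR, against 0% of all genes, and 2, 0 and 1 had an unadjusted p under 0.05 (7.79%, 4.99% and 12.4% of all genes). DESeq2 called 0 in each, and its shares of all genes are not given. The widest were those of Rock1, at -1.08 for Susceptible against Control (adjusted p = 0.637) and -1.21 for Susceptible against Resilient (adjusted p = 0.325 by edgeR), and without D2 Susceptible 1 and 2 they were -0.17 and -0.31.

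Within groups some pairs of members varied together and others in opposite directions, and of the 45 pairs 23 had a correlation above 0, with a median of 0.02. As a description over the 30 libraries, with group means removed from log2 CPM, Rock1 and Rock2 had a Pearson r of 0.919 (Spearman 0.894), and 0.849 without D2 Susceptible 1 and 2. Rac1 and Cdc42 had 0.686, and 0.741 without those libraries. Rock2 and Cfl1 ran in opposite directions, with -0.794 and -0.581 without them, as did Tiam1 and Cfl1 at -0.604 and -0.658. Pak1 and Cfl1, at 0.629, rested on those 2 libraries, since r was 0.0751 without them. For Rock1 and Pak1 it went from -0.697 to -0.394. Pak1 and Limk1 showed 0.366 with them and 0.682 without. The libraries share depth and composition across genes, so these are not independent relations.

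**Figure D4:**
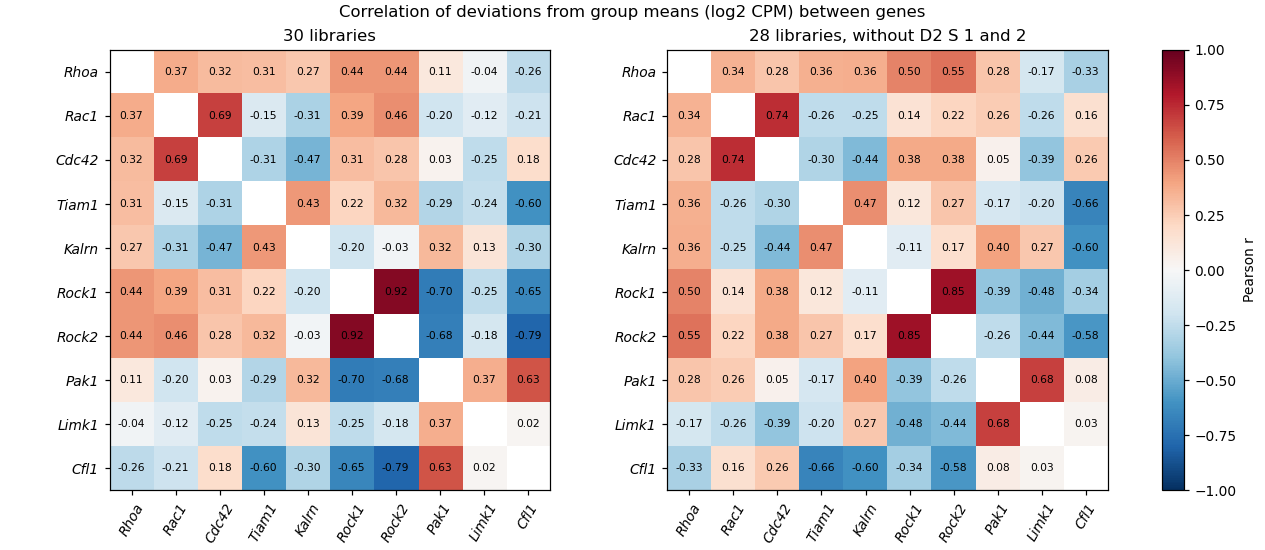
Pearson r between genes of log2 CPM deviations from group means over 30 libraries (left) and 28 libraries without D2 Susceptible 1 and 2 (right), on a colour scale from -1 to 1. Rock1 with Rock2 and Rac1 with Cdc42 are high in both panels, while Pak1 with Cfl1 drops from 0.629 to 0.0751.

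Over the same 30 libraries, the genes whose deviations were most like those of Rhoa were R3hdm1 (r = 0.754) and Ipcef1 (0.747). For Rac1 they were Armc1 (0.876), Cfap36 (0.869) and Actr6 (0.866), and for Kalrn Trip12 (0.837), Nup98 (0.831) and Cacna1b (0.787). Without D2 Susceptible 1 and 2 these values were 0.742 to 0.845.

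The wider pathway was read from a list of 144 further genes, of which 141 were matched to 1 gene each and tested. Averaged over conditions, 54 of the 141 (38.3%) passed between classes by edgeR, beside 29.3% of all genes, of which 30 stood higher in D1 (24 did in D2). By role, 9 of 16 further GTPases of the family passed (3 of them toward D1), 15 of 37 exchange factors (10 higher in D1), 9 of 27 GTPase-activating proteins and GDIs (7 higher in D1), 7 of 24 effector kinases and myosin genes (3 higher in D1), 3 of 9 cofilin regulators (2 higher in D1) and 11 of 28 genes of WAVE, Arp2/3 and formins (5 higher in D1). The median difference of the list was -0.01, against 0.00 for all genes.

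**Figure D5:**
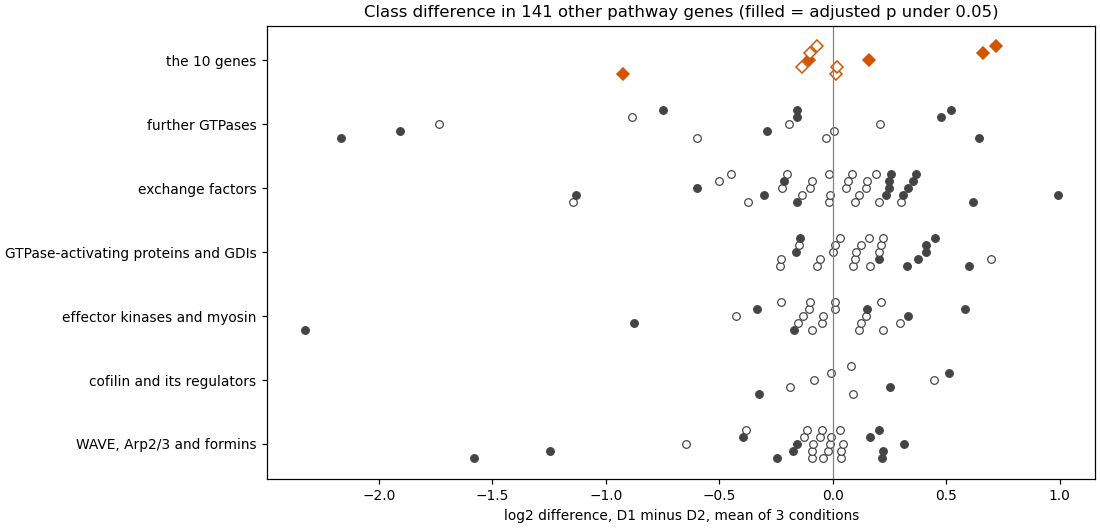
D1 minus D2 difference (log2, mean of 3 conditions, horizontal axis) of the 10 genes (orange diamonds) and of 141 other pathway genes by role (circles), filled where the edgeR adjusted p was under 0.05. Rock1 is the leftmost of the 10 at -0.92, and the GTPases Rhoj (-2.17) and Rhoc (-1.91) lie farther left.

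The genes higher in D1 with the smallest p included partners of cofilin and myosin and several proteins that switch GTPases off. Wdr1, which helps cofilin take filaments apart, stood at 118 ± 8.66 CPM in D1 and 82.9 ± 9.98 CPM in D2 (SD, n = 15 each), a difference of 0.51 on the log2 scale (adjusted p = 1.28e-10 by edgeR), and its 15 D1 libraries were all above its 15 D2 libraries, as was so for 1.18% of all genes in either direction. Ppp1r12b, a subunit of the myosin phosphatase that ROCK inhibits, differed by 0.58 (adjusted p = 4.65e-09). The GTPase-activating proteins Arhgap35 (0.37), Srgap3 (0.33), Abr (0.41), Arhgap44 (0.41) and Arhgap1 (0.60) were also higher, as were the exchange factor Arhgef28 (0.99) and the GTPases Rhof (0.48) and Rac3 (0.52), the last a close relative of Rac1.

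Higher in D2 with the smallest p were Rhoc, a close relative of Rhoa, at 1.49 ± 0.517 CPM in D1 and 5.64 ± 2.13 CPM in D2 (SD, n = 15 each; log2 difference -1.91, adjusted p = 6.06e-08 by edgeR), and the Rac exchange factor Prex1 at 61.6 ± 11.3 and 93.0 ± 11.4 CPM (-0.60, adjusted p = 2.68e-07). The others were Arpc1b (-1.25) and Arpc2 (-0.25) of the Arp2/3 complex, Dock1 (-1.13), Arhgef15 (-0.30), the formin Fmnl3 (-1.58), Rhoj (-2.17), Baiap2 (-0.39) and the myosin light chain Myl12a (-0.88). Rhoj is known from endothelial cells. The endothelial and mural marker sums given above were higher in D2 too, and all 5 markers of each passed toward D2. The part of such cells in any of these genes higher in D2 was not tested.

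Within conditions 15 of the 141 passed in Control (10.6%), 17 in Resilient (12.1%) and 47 in Susceptible (33.3%), beside the shares of all genes given above. In Control the genes with the smallest p were Wdr1 (0.45), Ppp1r12b (0.49), Srgap3 (0.31) and Arhgap35 (0.32) higher in D1, and Rhoc (-2.15), Prex1 (-0.62), Myl12a (-1.28) and Pdxp (-0.52), a phosphatase that activates cofilin, higher in D2. In Resilient they were Wdr1 (0.42), Ppp1r12b (0.49), Arhgap44 (0.45) and Srgap3 (0.29), and Fmnl3 (-2.39), Prex1 (-0.65), Rhoc (-1.83) and Arpc1b (-1.44). In Susceptible they were Wdr1 (0.67), Ppp1r12b (0.77), Abr (0.59) and Arhgap1 (0.95), and Arhgef15 (-0.57), Baiap2 (-0.62), Net1 (-0.47) and Rhoc (-1.75). Without D2 Susceptible 1 and 2 the counts were 37, 31 and 28. The shares of all genes in that fit are not given, so these counts are not a result about the list.

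In the stress comparisons 0 of the 141 passed by edgeR in D1 and in the tests of the difference between classes, as 0% of all genes did. At an unadjusted p under 0.05 there were 3, 4 and 8 in D1 for Susceptible against Control, Resilient against Control and Susceptible against Resilient (2.4%, 2.6% and 3.49% of all genes), and 14, 10 and 19 in the tests of the difference (7.79%, 4.99% and 12.4% of all genes). In D2, 0 passed by edgeR for Susceptible against Control, with 29 at an unadjusted p under 0.05 (15.7% of all genes) and 3 by DESeq2. For Resilient against Control 0 passed by edgeR, with 5 at an unadjusted p under 0.05 (4.2% of all genes) and 0 by DESeq2. For Susceptible against Resilient 28 had an unadjusted p under 0.05 (19.1% of all genes) and 1 passed (0.0516% of all genes), Arhgef15, an exchange factor for RhoA, at 42.2 to 56.2 CPM in Susceptible and 33.8 to 39.7 CPM in Resilient (log2 difference 0.42, adjusted p = 0.0495 by edgeR). Its groups did not overlap, as was so for 1.5% of all genes. Endothelial markers summed to 173 to 303 CPM in D2 Susceptible and 53.3 to 187 CPM in D2 Resilient, with a median log2 difference of 0.42 over the 5 markers, of which 0 passed. Their part in this call was not tested. The count was 0 without D2 Susceptible 1 and 2, and 10 by DESeq2, which also called 1 in the test of the D1 minus D2 change for this pair of groups and 0 in D1. With limma voom 1 passed for D1 Resilient against Control. Shares of all genes are not given for these other fits, so their counts are not a result about the list.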

How the data were processed

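RNA bound to tagged ribosomes was sequenced in 30 libraries of 6 groups. Libraries were made with the SMART-Seq v4 kit from 10 ng of RNA. Both facts are per the labels' protocols. What the authors deposited are unnormalized read counts by gene. The submitters' processing notes name HISAT2, HTSeq and the builds GRCm38 and mm10, with no versions, while neither strand setting nor annotation release is stated in the sources used here. The table of the whole series matched the 30 library files in all columns. Lines of reads not assigned to a gene (10.1% to 53.3% of a library's reads) stayed out of library sizes and tests.

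Groups and replicate numbers come from the sample titles. Genes were kept with filterByExpr (minimum count 10, minimum total 15), so that 19368 were tested and 35967 were not. TMM factors scaled the libraries. The test was edgeR's (4.0.16, R 4.3.3) robust quasi-likelihood F test in 1 model of 6 groups, and each of 13 comparisons was adjusted over all genes tested by Benjamini-Hochberg at 0.05. The test was also run on simulated counts with the same spread for all genes and no libraries set apart. That outcome is not given here and does not bear on these libraries. CPM values use TMM-scaled library sizes, and correlations use log2 CPM with a prior count of 1. Positions and exon lengths come from GENCODE M21 on GRCm38, and promoters from RefSeq on GRCm38.p6. A count of 0 allows up to 3 counts.

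The members and lists were chosen with earlier results of these data known, so list counts are descriptions. All 10 members are named. Of the pathway list (144 genes; Arhgef4, Arhgap26 and Myl12b matched more than 1 row and were left out), the text names the called genes with the smallest p, at most 10 in each direction for the class average and 4 elsewhere. For Rhoa, Rac1 and Kalrn the 3 most alike genes are named, of which 1 is not reported here. Alternatives were DESeq2 1.42.0, its size factors in edgeR, no filter, a replicate block, limma 3.58.1 (voom with quality weights), the compared groups alone, and leaving libraries out. Figures were drawn with matplotlib 3.10.9. Male and human data of the series were not analysed here.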

Additional observations from a re-analysis of the deposited data

Results flagged for a closer look

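In 60 groups of 5 libraries (10 genes in 6 groups), 4 held a library far from the rest by Dixon's test (gap to range above 0.71), where chance flags about 1 group in 20. Rac1 stood at 375 CPM in D2 Resilient replicate 1, against 311 to 326 CPM in the other 4 libraries. Rock2 stood at 331 CPM in the same library, against 254 to 275 CPM. Kalrn stood at 190.1 CPM in D2 Control replicate 4, against 210.0 to 217 CPM. Cfl1 stood at 1235 CPM in D1 Resilient replicate 5, against 1109 to 1138 CPM.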

How the results depend on the processing

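Of 103 counts of members called under alternatives other than leaving out 1 library, 95 stayed within 1.5 times the count reported. Most of these counts belong to stress comparisons and tests of the D1 minus D2 change. There 0 members and at most 0.0516% of all genes passed by edgeR. Such counts had little room to move, so the total says little about the class calls. The 8 that moved were as follows. In D1 against D2 Control libraries 1 member was called with no filter on low counts, 1 with the replicate block and 4 with limma voom, in place of 2. In Resilient 4 were called with limma voom and 2 in each of the fits on only the groups compared, without D2 Susceptible 1 and 2, and without these together with D1 Susceptible 1 and D2 Resilient 5, in place of 1. In D2 Susceptible against Resilient 1 was called with DESeq2, in place of 0. Shares of all genes called in these fits are not given. Leaving out 1 library gave 0 to 2 members in Control, 0 to 1 in D2 Susceptible against Control, 0 to 3 in D2 Susceptible against Resilient, 4 to 6 for the class average and 3 to 4 in Susceptible. Of 235 log2 differences of single members, 216 kept direction and side of the threshold and 4 reversed. The class difference of Rock2 in Susceptible was 0.0209 with limma voom and 0.0161 without D2 Susceptible 1 and 2. The Susceptible minus Control difference of Rock1 in D2 was -0.00821 without D2 Susceptible 1 and 2 and -0.00604 without the 4 libraries. With limma voom, Kalrn passed in Control (0.20) and Rhoa in Resilient (-0.16). The cause was not tested. Fewer libraries enter the fits that leave some out, and the part of this was not tested either. The fit of only the groups compared equals the reported one for the class average.

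The pathway list count moved by over 1.5 times in several fits. Shares of all genes are not given for these fits, so the moves may not be particular to the list. For the class average it was 89 with limma voom. In Control it was 62 with limma voom, 34 with only the groups compared, 39 without the 4 libraries and 7 to 19 leaving out 1 library (lowest without D1 Control 3). In Resilient it was 37, 30 and 33 in those fits and 10 to 21 leaving out 1 (lowest without D2 Resilient 1). In Susceptible it was 8 with only the groups compared and 26 without the 4 libraries. In D2 Susceptible against Resilient it was 0 with no filter, the replicate block, limma voom or only the groups compared, and 0 to 19 leaving out 1 library, and in D2 Susceptible against Control up to 12 (both highest without D2 Susceptible 3).

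The replicate numbers showed no pairing of the libraries in a check of correlations. Over 75 pairs, libraries of different groups with the same number had correlations of -0.14 to 0.07, with 0 pairs over 0.1. In 32 of 150 looks, each among 5 libraries, a library correlated best with its own number. Whether libraries of the same number shared a preparation was not tested. The replicate block moved the members called in Control from 2 to 1, where Limk1 had 0.56 (adjusted p = 0.05005 by edgeR), and no other count of members. Limk1 (185 to 1524 counts) and Rock1 (342 to 6758 counts) were the least counted members. Their counting error at the fewest counts, 7.35% and 5.41%, was below their coefficients of variation over the 30 libraries, 28.1% and 73.8%.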
